A study of Mus musculus with 15 samples.

Results

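In mouse mesoderm precursors, 1548 regions carried peaks of Ring1b and of RYBP and no peak of Mel18 or Cbx2, out of 11853 regions in all. Regions were made by merging all peaks of 5 ChIP-seq lists that overlapped by 1 bp or more on chromosomes 1 to 19, without the start of chromosome 9 below 3.04 Mb. A region was a member when it held peaks of Ring1b and RYBP in mesoderm precursors and no peak of Mel18 in embryonic stem cells, of Mel18 in mesoderm precursors or of Cbx2 in mesoderm precursors. The members were thus chosen by the presence or absence of peaks in these 5 lists, and peak counts, scores and widths of these lists are given as a description with no test. Members made up 13.1% of all merged regions and 31.2% of the 4969 regions with both Ring1b and RYBP peaks, and nothing is read from these shares, since the rule fixed them.

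Polycomb repressive complex 1 (PRC1) is built around Ring1b or its paralogue, which place ubiquitin on histone H2A. In canonical PRC1 the complex holds a CBX protein such as Cbx2, which binds the methyl mark placed on histone H3 by Polycomb repressive complex 2. In variant PRC1 the CBX protein is replaced by RYBP or its paralogue YAF2, which bind the same surface of Ring1b. Each PRC1 complex also holds a PCGF protein, and Mel18 (Pcgf2) is the PCGF subunit found with CBX proteins and, in some complexes, with RYBP. Regions with Ring1b and RYBP and without Mel18 or Cbx2 are therefore candidates for variant PRC1 with another PCGF subunit. No list of another PCGF subunit was used, so that reading was not tested.

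The lists came from the E14Tg2A line of mouse embryonic stem cells (ESCs), grown in 2i medium with LIF, and from early cardiac mesoderm precursors (MES) that were differentiated from it with BMP4. The labels name no genetic change in the cells used for ChIP-seq. Per the labels, 5 ug of antibody was used, and the BMP4 dose was typically 0.1 to 0.3 ng/ml and depended on the BMP4 batch. Mel18 was mapped in both states with the same antibody lot, Cbx2 and RYBP were mapped in MES with commercial antibodies, and Ring1b in MES with a home-made antibody. Each list came from 1 sample, so no difference between lists had a replicate check, and the absence of a peak means only that the authors' list held none there. Read depth was unknown for all lists. The purity of the MES cells was not checked, because only peak lists were used. Positions are on the mm9 build, counted from 1. Genes and DNA sequence at the regions were not used here, because the reference tables at hand were on another build.

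Most members were small sites with a single peak of each protein. In 1497 of 1548 members (96.7%, interval 95.7 to 97.5) there was 1 Ring1b and 1 RYBP peak, against 4134 of 4969 regions with both proteins (83.2%) and 517 of 545 where ESC Mel18 was the sole addition (94.9%, interval 92.7 to 96.6). In 45 members there were 2 Ring1b peaks and 1 RYBP peak, in 5 there were 1 and 2, and in 1 there were 2 and 2. Together the members held 1594 of 8434 autosomal Ring1b peaks (18.9%) and 1554 of 7494 autosomal RYBP peaks (20.7%). Their median length was 1482 bp (95% order-statistic interval 1454 to 1510), with 10% of members under 981 bp and 10% over 2227 bp. Only 24 members (1.55%, exact Clopper-Pearson 95% interval 0.996 to 2.30) reached 3 kb, against 33.0% of all regions with Ring1b and RYBP and 1332 of the 1880 regions with peaks of all 5 lists (70.9%). All such intervals cover counting error only and treat regions as independent.

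**Figure D1:**
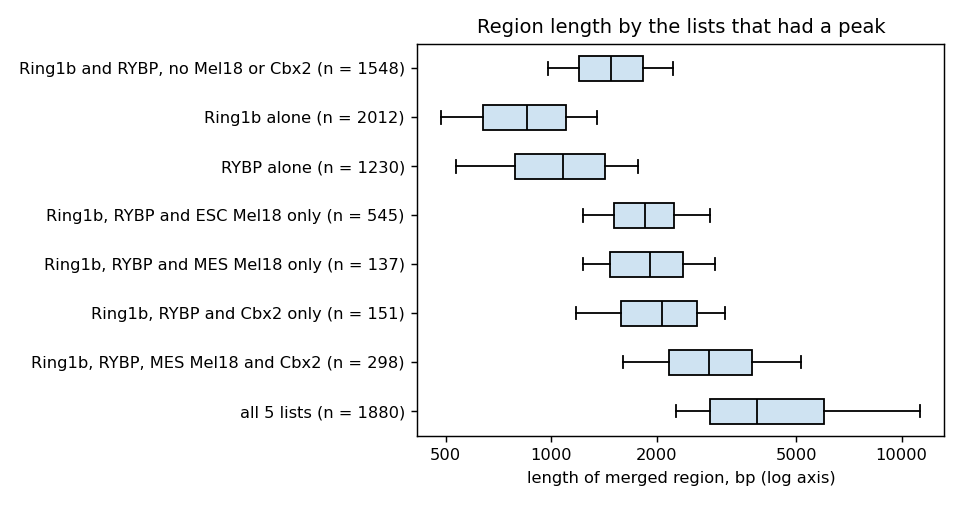
Length of merged regions in bp (log axis) by the lists that had a peak in them. Boxes show the middle 50% of regions with the median as a line, and whiskers run to the 10% and 90% points. The median was 1482 bp for regions with Ring1b and RYBP and without Mel18 or Cbx2, 855.5 bp for Ring1b alone, 1078 bp for RYBP alone and 3878 bp for regions with all 5 lists.

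Among the classes of region with both Ring1b and RYBP that are compared here, the members were the shortest by median. A longer region has more bases on which another peak can fall, and regions with a further list include that list's peaks in their length. Regions where ESC Mel18 was the sole addition had a median of 1849 bp (n = 545), those with MES Mel18 as the sole addition 1915 bp (n = 137), and those with Cbx2 as the sole addition 2067 bp (n = 151). Members were longer than regions with Ring1b alone (median 855.5 bp, n = 2012) or RYBP alone (median 1078 bp, n = 1230). The 5 longest members were chr16:30062203-30067627 (5425 bp), chr11:103220348-103225136 (4789 bp), chr17:56278341-56282842 (4502 bp) and chr19:10350918-10354592 (3675 bp) and chr19:32461497-32465023 (3527 bp). In 4 of these 5, 1 of the proteins had more than 1 peak.

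Ring1b and RYBP peaks lay nearly on top of each other in the members. The median overlap was also high in the other regions with both, while the distance between peak centres differed by class. The overlap covered a median of 99.4% of the shorter of the pair in members, 99.9% over all regions with both proteins and 100% in regions of all 5 lists. In the members with 1 peak of each, the peak centres lay a median of 131 bp apart (interval 121.5 to 141), and in 1398 of 1497 (93.4%) they were within 500 bp, against 89.7% over all regions with 1 peak of each. The median was 138.5 bp where ESC Mel18 was the sole addition (interval 126.5 to 154) and 199 bp in regions of all 5 lists with 1 peak of each (n = 1261). Where MES Mel18 was the sole addition it was 143 bp (n = 122, interval 104.5 to 173.5). It was 273.5 bp where Cbx2 was (n = 136, interval 188 to 315), which did not overlap the interval of the members. Offsets were not scaled to peak width. Ring1b covered a median of 1126 bp in members and 2652 bp in regions of all 5 lists. By the merge, the pair had to overlap in members, whereas in the other classes a peak of another list could join it.

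RYBP peaks were usually the broader of the pair at these sites. Ring1b covered a median of 1126 bp (interval 1097 to 1150) and RYBP a median of 1336 bp (1304 to 1368). RYBP covered more bases than Ring1b in 1062 of 1548 members (68.6%, interval 66.2 to 70.9), against 49.8% of all regions with both proteins and 24.4% of regions with all 5 lists. The median ratio of RYBP to Ring1b covered length was 1.15 in members (interval 1.13 to 1.17), 1.17 where ESC Mel18 was the sole addition, 1.32 where Cbx2 was, 1.08 where MES Mel18 was, 0.925 where MES Mel18 and Cbx2 were added and 0.809 in regions of all 5 lists. In members with 1 peak of each, the Ring1b peak lay inside the RYBP peak in 535 (35.7%) and the RYBP peak inside the Ring1b peak in 180 (12.02%). In regions of all 5 lists with 1 peak of each the order was the other way round, with 150 of 1261 (11.9%) and 577 of 1261 (45.8%).

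The ratio set the lengths of single libraries of unknown depth against each other, so its level has no meaning of its own, whereas its difference between classes of region compares the same libraries. That difference was compared at like scores of 1 list at a time. The authors' score is given here as a percentile, its rank from the lowest score as a percent of the peaks of the same list. Peaks with tied scores share their mean rank. Between the Ring1b percentiles 80 and 90, the median ratio was 1.09 in 90 members (interval 1.03 to 1.16) and 0.825 in 494 regions of all 5 lists (0.798 to 0.858). Between percentiles 40 and 50 it was 1.10 in 218 members (1.07 to 1.19) and 1.14 in 56 regions of all 5 lists (1.02 to 1.28), and the intervals overlapped. Taken by RYBP percentile instead, the median ratio of members stayed between 1.003 and 1.25 in all 10 bands, and that of regions with all 5 lists between 0.644 and 0.850. The RYBP bands did not match the Ring1b percentile. Over each class as a whole, its median was 44.7 in members and 85.8 in regions of all 5 lists.

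The extremes of the ratio show how far the pair could differ. The largest ratios were 4.20 at chr18:35988399-35991336, 3.64 at chr15:85862735-85865569, 3.45 at chr6:113143616-113145983, 3.28 at chr8:37310982-37313243 and 3.14 at chr9:31839446-31841069. At these 5 the Ring1b peak was 517 to 778 bp wide and ranked low in its list, between percentiles 5.20 and 37.8, while the RYBP peak ranked between 41.0 and 94.0. The smallest ratios were 0.441 at chr3:144232078-144234304, 0.442 at chr3:105489171-105491131, 0.446 at chr4:45096770-45097956, 0.447 at chr17:3314099-3315062 and 0.453 at chr16:35769366-35771703. There RYBP ranked between percentiles 14.1 and 42.7 and Ring1b between 44.8 and 68.4.

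Member peaks came from the lower and middle part of both lists by score. The median percentile was 44.7 for Ring1b (interval 42.8 to 46.4) and 42.7 for RYBP (40.9 to 44.5). In regions of all 5 lists the medians were 85.8 and 77.6. In regions with Ring1b alone the median Ring1b percentile was 23.7, and in regions with RYBP alone the median RYBP percentile was 20.1. The percentiles of the 2 proteins went together across members (Spearman rho 0.45, n = 1548, with the pair read from the same stretch of DNA in each case). As a share of whole classes, discordant pairs were about as rare in members as over all regions with both proteins. Ring1b was over percentile 75 with RYBP at or under 25 in 18 members (1.16%), against 1.27% over all, and the reverse held in 10 (0.646%), against 0.483%. Fewer members had high scores, however. Of regions with Ring1b over percentile 75, RYBP was at or under 25 in 18 of 171 members and in 35 of 1389 regions of all 5 lists. With RYBP over 75, Ring1b was at or under 25 in 10 of 239 members and in 1 of 1013 regions of all 5 lists.

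Peaks of both proteins ranked above percentile 75 in 104 members (6.72%) and above percentile 90 in 12 (0.775%). Over all regions with Ring1b and RYBP the shares were 23.3% and 8.01%. Both were at or under percentile 25 in 143 members (9.24%), against 4.47% over all regions with both (222 of 4969).

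**Figure D2:**
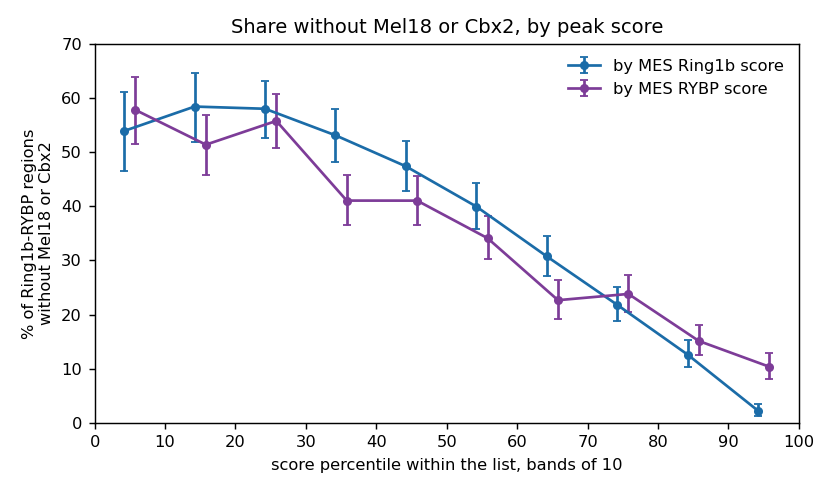
Percent of regions with Ring1b and RYBP peaks that had no Mel18 or Cbx2 peak (vertical axis), in bands of 10 percentiles of the authors' score within the Ring1b list or the RYBP list (horizontal axis). Bars are exact 95% intervals. The lowest share was 2.23%, in the highest Ring1b band, and the share in the highest RYBP band was 10.4%.

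The share of Ring1b-RYBP regions without Mel18 or Cbx2 was smaller where the peaks scored higher, and it was lower in the highest Ring1b band than in the highest RYBP band. By Ring1b score it was 53.9% up to percentile 10 (103 of 191), 58.4% between percentiles 10 and 20 (142 of 243), 40.0% between 50 and 60 (211 of 528), 12.6% between 80 and 90 (90 of 714) and 2.23% between 90 and 100 (17 of 763, interval 1.30 to 3.54). By RYBP score it was 57.8% up to percentile 10 (148 of 256), 51.4% between percentiles 10 and 20 (166 of 323), 34.1% between 50 and 60 (190 of 557), 15.1% between 80 and 90 (99 of 655) and 10.4% between 90 and 100 (69 of 666, interval 8.15 to 12.9). In the highest Ring1b band 96.9% of regions had MES Mel18, 96.6% Cbx2 and 94.4% ESC Mel18. In the highest RYBP band the shares were 82.7, 80.6 and 83.5%. The bands of the 2 lists hold different but overlapping sets of regions, and the difference between them was not tested.

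Member peaks were narrower than those of regions with all 5 lists at like scores in the upper part of the lists. Between Ring1b percentiles 80 and 90 the highest-scoring Ring1b peak was a median of 1363 bp wide in 90 members (interval 1278 to 1495) and 2340 bp in 494 regions of all 5 lists (2272 to 2406). Between percentiles 40 and 50 the medians were 1094 bp in 218 members (1027 to 1171) and 1046 bp in 56 regions of all 5 lists (965 to 1180), which overlapped. Between RYBP percentiles 80 and 90 the RYBP peak was a median of 1750 bp wide in 99 members and 2309 bp in 376 regions of all 5 lists. Between Ring1b percentiles 50 and 90 the median width of member peaks moved between 1216 and 1363 bp in bands of 10, while that of the regions with all 5 lists went from 1266 to 2340 bp. Against other classes the difference varied by band or went the other way round. Where ESC Mel18 was the sole addition, the median Ring1b width between percentiles 60 and 70 was 1493 bp (n = 86, interval 1364 to 1718). Between 70 and 80 it was 1800 bp (n = 50, 1518 to 2061). Members had 1216 bp (1166 to 1310) and 1330 bp (1268 to 1375) in these bands, and the intervals did not overlap. Between percentiles 80 and 90 the median with ESC Mel18 was 1545 bp (n = 21, interval 1113 to 1961), which overlapped that of the members. Above Ring1b percentile 75, peaks of Ring1b-alone regions were narrower (median 1092 bp, n = 70) than those of members (1374 bp, n = 171). Width, like score, comes from the lists that chose the members, so this is a description.

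The 10 members that ranked highest in both lists (by the lower of the 2 percentiles) had Ring1b peaks between percentiles 90.2 and 93.9 and RYBP peaks between 92.6 and 99.7. They were picked by score among members, so their high scores and their lack of Mel18 and Cbx2 peaks follow from the choice. Of the 398 Ring1b-RYBP regions whose lower percentile was over 90, 12 were members (3.02%). The first was at chr3:89576221-89577809, with a Ring1b peak of 1375 bp and score 1346 and an RYBP peak of 1589 bp and score 1042, whose centres were 6 bp apart. Its nearest ESC Mel18 peak was 11045 bp away, its nearest MES Mel18 peak 55749 bp and its nearest Cbx2 peak 54976 bp. The second was at chr11:95274258-95275582, with a Ring1b peak of 1325 bp and score 1271 around an RYBP peak of 1163 bp and score 1000. The third was at chr5:138720847-138722620, with Ring1b at 1534 bp and score 1251 and RYBP at 1774 bp and score 870.69. The fourth, at chr15:84961543-84963253, had Ring1b at 1565 bp and score 1115 and RYBP at 1601 bp and score 1005.

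In rank order the others were chr11:3547890-3550312, chr9:72121860-72123833, chr11:3231521-3233552, chr14:28240729-28243266, chr5:138124973-138127250 and chr19:4120152-4121905. Of these, the first had the RYBP peak with the highest score of the 10 (1343, percentile 99.7) and the nearest MES Mel18 and Cbx2 peaks of the 10, at 18044 and 18088 bp. The site on chromosome 14 had the nearest MES Mel18 peak at 1074279 bp and the nearest ESC Mel18 peak at 91345 bp. In 9 of the 10 the RYBP peak was the wider, with ratios from 1.02 to 1.97 and 0.878 at the site on chromosome 11 from 95274258. Peak centres were 1 to 346 bp apart.

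**Figure D3:**
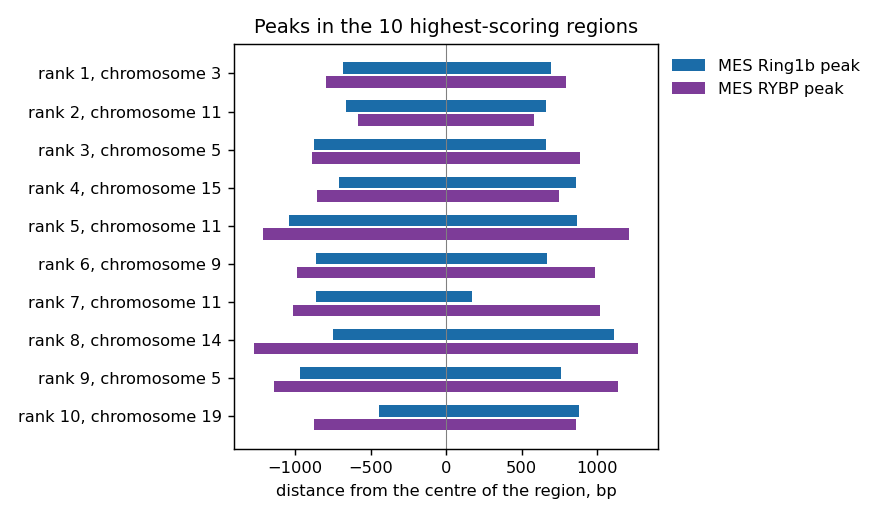
Ring1b and RYBP peaks of MES in the 10 regions that ranked highest in both lists, drawn to scale as distance in bp from the centre of each region. Each pair of bars is 1 region, with Ring1b above RYBP, and the RYBP bar is the longer in 9 of the 10.

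The rule removed every region with a Mel18 or Cbx2 peak, and the median distance from members to such peaks lay between those of regions with Ring1b alone (64131 bp) and RYBP alone (82141 bp). The nearest peak of any of the 3 excluded lists was a median of 74132 bp away (interval 69095 to 79640), with 10% of members nearer than 9202 bp and 10% farther than 305651 bp. The median distance was 99232 bp to ESC Mel18, 149300 bp to MES Mel18 and 163132 bp to Cbx2, and these lists differ in length. A peak of an excluded list lay within 10 kb of 170 members (11.0%, interval 9.47 to 12.6), against 11.5% of all 4790 regions that held Ring1b peaks, RYBP peaks or both and no other. Of the 170, 54 had ESC Mel18 alone within 10 kb, 42 had all 3 lists, 23 had MES Mel18 alone, 22 had Cbx2 alone and 20 had MES Mel18 with Cbx2. The share within 10 kb was 13.0% for Ring1b alone (262 of 2012, interval 11.6 to 14.6) and 9.59% for RYBP alone (118 of 1230, interval 8.01 to 11.4), so that the interval of the members overlapped both.

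**Figure D4:**
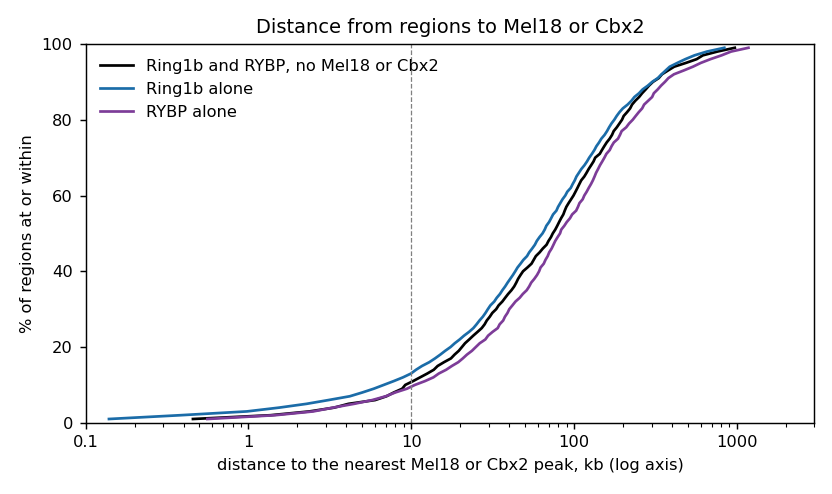
Percent of regions (vertical axis) whose nearest Mel18 or Cbx2 peak lay at or within the distance on the horizontal axis (kb, log axis), for regions with Ring1b and RYBP (black), Ring1b alone (blue) and RYBP alone (purple). The dashed line marks 10 kb, where the curves stand at 11.0, 13.0 and 9.59%, and the medians were 74132, 64131 and 82141 bp.

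Members near the excluded lists ranked somewhat lower in the Ring1b and RYBP lists than far ones. The median Ring1b percentile was 39.1 in the 170 members within 10 kb (interval 32.9 to 43.4) and 46.8 in the 616 members farther than 100 kb (44.2 to 49.5). The median RYBP percentile was 38.2 (33.1 to 43.0) and 46.7 (43.2 to 50.01). The median ratio of covered lengths was 1.12 near and 1.13 far. The intervals of the percentiles did not overlap, and no test was made.

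Among members with both percentiles over 50, the farthest from any Mel18 or Cbx2 peak was chr4:71860271-71862057, with the nearest such peak, of ESC Mel18, at 1574197 bp. Its Ring1b peak (1765 bp) and RYBP peak (1771 bp) matched closely, with centres 19 bp apart, and ranked at percentiles 79.1 and 92.5. The next were chr10:55834699-55836001, chr4:93001200-93002777, chr16:78376925-78377915 and chr4:19501722-19502953, at 1515514, 1399013, 1361446 and 1201441 bp from the nearest Mel18 or Cbx2 peak. The site on chromosome 4 from 93001200 had an RYBP peak at percentile 95.5 and a Ring1b peak at 74.4. These 5 sites were 991 to 1787 bp long.

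At the edge of the rule, 8 members had a Mel18 or Cbx2 peak within 100 bp. The closest members were chr7:51843641-51846031 (3 bp from a Cbx2 peak and 218 bp from a MES Mel18 peak), chr17:10527547-10529082 (28 bp from MES Mel18), chr2:119162949-119164203 (37 bp from Cbx2), chr7:87515260-87516474 (61 bp from MES Mel18) and chr12:3235404-3236122 (62 bp from ESC Mel18). Just outside the rule, the smallest overlap of Ring1b or RYBP peaks with excluded lists, summed over their peaks, was 64 bp at chr5:9265316-9266816, 87 bp at chr11:43648811-43650511, 130 bp at chr1:155586627-155588458, 150 bp at chr2:121691516-121693447 and 192 bp at chr13:44824609-44826918. The first 3 of these overlapped ESC Mel18, the next MES Mel18 and the last Mel18 of both states. In the order given, their Ring1b percentiles were 27.3, 32.6, 36.0, 51.7 and 40.5, against a median of 44.7 in members. Their RYBP percentiles ran from 2.65 to 82.9, against a median of 42.7 in members.

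In 545 regions ESC Mel18 was the sole addition, so that the presence of MES peaks alone did not separate them from the members. They were 26.0% (interval 24.2 to 28.0) of the 2093 regions with Ring1b and RYBP and without MES Mel18 or Cbx2. Their median Ring1b percentile was 46.3 (interval 43.4 to 49.9), which overlapped that of the members at 44.7 (42.8 to 46.4). Their median RYBP percentile was 51.1 (47.7 to 54.0), above that of the members at 42.7 (40.9 to 44.5). Ring1b and RYBP covered medians of 1275 and 1563 bp there, against 1126 and 1336 bp in members, and the intervals did not overlap for either protein. The difference was between classes of region within single libraries and has no replicate check.

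Most members had no other member within 10 kb, and fewer had none within 50 kb. Another member lay within 10 kb of 55 members (3.55%). A member lay within 10 kb of 3.83% of Ring1b-alone regions and 3.33% of RYBP-alone regions, so the share was much the same in these classes. Some other region of any class lay within 10 kb of 302 members (19.5%). Joining members within 10 kb of each other left 1520 groups, of which 1493 held 1 member and 27 held 2 or more. At 50 kb there were 1398 groups, of which 124 held 2 or more, with 274 members in them and at most 5 in a group. At 10 kb the single group of 3 lay within chr8:73117554-73134248, which spans 16695 bp. Its members were 2058, 2604 and 2660 bp long, with Ring1b percentiles of 51.1, 72.2 and 81.9 and RYBP percentiles of 51.0, 76.3 and 81.5. The nearest Mel18 or Cbx2 peak was 95703 bp from the first of them. The nearest other member was a median of 220152 bp away over all members.

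Members occurred on every autosome, from 29 on chromosome 18 to 133 on chromosome 11. As a share of Ring1b-RYBP regions they ranged from 18.5% on chromosome 18 (29 of 157, interval 12.7 to 25.4) and 22.6% on chromosome 3 (55 of 243, interval 17.5 to 28.4) to 38.1% on chromosome 9 (112 of 294, interval 32.5 to 43.9) and 40.4% on chromosome 16 (57 of 141, interval 32.3 to 49.0). The intervals of these 4 chromosomes did not reach 31.2%, the share over all autosomes, and those of the other 15 included it. The 19 intervals were not adjusted for their number, and neighbouring regions are not independent.

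**Figure D5:**
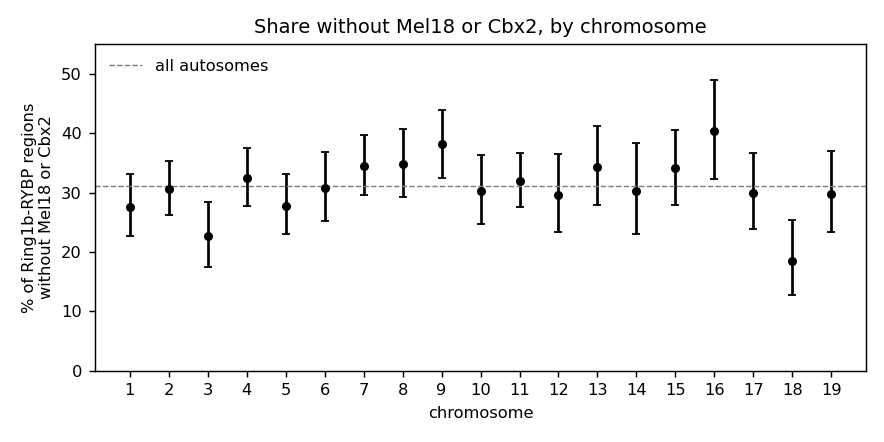
Percent of regions with Ring1b and RYBP peaks that had no Mel18 or Cbx2 peak (vertical axis) on each autosome (horizontal axis). Bars are exact 95% intervals and the dashed line is the share over all autosomes, 31.2%. Chromosomes 3 and 18 lie below the line and chromosomes 9 and 16 above it with intervals that do not reach it.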

How the data were processed

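The authors deposited 1 peak list per ChIP-seq sample, with positions, a name that carries the tag MACS and 1 score per peak. The score in the deposited files has no stated scale, starts at 50 and piles up at 3100 in 4 of the 5 lists, so it was used only within its list, as a percentile or, for named peaks, as deposited. Reads were placed on mm9, and Bowtie and TopHat were named with no version, per the submitters' processing notes. Caller settings, the control and any pooling are not given in the sources used here. Of the 15 samples in the series, 5 were used, with 1 sample per list. The IgG and RNA-seq samples were not analysed here.

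Peaks were merged into regions with Python 3.11.15, numpy 2.4.6 and pandas 2.3.3. The merge was tested on simulated data and checked against bedtools 2.31.1, with 0 regions that differed. Shares have exact Clopper-Pearson 95% intervals (scipy 1.17.1) and medians have order-statistic 95% intervals. No test was made between lists. Regions named are the 10 members with the highest lower percentile, and 5 each by length, by distance and by ratio of covered lengths. The members, rules and alternatives were chosen with earlier results of these data known. Plots used matplotlib 3.10.9.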

Additional observations from a re-analysis of the deposited data

Results flagged for a closer look

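The X chromosome lies outside the autosomes from which members were drawn, and 17 regions there had Ring1b and RYBP peaks with no Mel18 or Cbx2 peak. They were 17 of 74 X-linked regions with both proteins (23.0%, exact interval 13.99 to 34.2), which overlaps the autosomal share of 31.2%. Ring1b and RYBP covered medians of 836 and 853 bp there.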

How the results depend on the processing

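No paired analysis was possible because no list had a second sample. Of 45 values recomputed under alternatives, 26 stayed within the interval of the reported value or, for counts, within 1.5 times, and 19 moved. With only the upper 50% of Ring1b and RYBP peaks by score, 411 members remained, which were 16.4% of Ring1b-RYBP regions, with median Ring1b and RYBP lengths of 1330 and 1589 bp and 8.52% within 10 kb of Mel18 or Cbx2. With the upper 50% of every list there were 732 members, and 411 of the 1548 members overlapped 1 of them, at 29.2% of such regions, with 1383 and 1662 bp and 4.37% within 10 kb. Without ESC Mel18 the share was 42.1%, the lengths 1164 and 1394 bp and the share within 10 kb 7.26%. Leaving out members within 5 kb of Mel18 or Cbx2 gave 29.5%, and 5.87% within 10 kb. The first share had to fall because members were left out while the number of Ring1b-RYBP regions stayed the same. The share within 10 kb had to fall because the members left out all lay within 10 kb. Joining peaks within 1 kb gave 9.45% within 10 kb. With other distances, 5.43% lay within 5 kb and 40.4% within 50 kb, and such a share cannot rise at a smaller distance or fall at a larger one. The median ratio of RYBP to Ring1b length lay between 1.149 and 1.156 in the 7 alternatives. Gene starts, gene lists, sequence words and base composition were planned and not run, because no annotation or genome of the mm9 build was used. Depth was unknown, so a missing Mel18 or Cbx2 peak may lie below the authors' threshold, which was not tested.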

Other observations

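The region nearest to a member was another member in 270 of 1548 cases (17.4%, exact interval 15.6 to 19.4), whereas over all 11853 regions a member was the nearest neighbour in 12.6%. It was a region of all 5 lists in 199 cases (12.9%, interval 11.2 to 14.6), against 15.9% over all regions. Ring1b-alone regions were nearest in 18.9% of cases and RYBP-alone regions in 11.9%, against 17.1 and 9.79% over all regions. Neighbouring regions can be parts of 1 stretch that the caller split, and these shares were not tested.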
